A study of Mus musculus with 2 samples.

Results

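The 42 genes described here are immediate early and heat shock genes that are often switched on while a tissue is taken apart into single cells. They were taken by symbol from a list of 37 immediate early genes and 5 heat shock genes, out of 32285 genes in the count tables. All 42 were present, and each had at least 50 UMIs (unique molecular identifiers, counts of captured mRNA molecules) over the named cell classes. The counts come from 2 single-cell libraries of mouse RPE/choroid, the retinal pigment epithelium with the vascular and stromal layer behind it, at 10 weeks of age. The library called Tsc1 flox came from mice with the floxed allele Tsc1tm1Djk/J and no Cre. The library called Tsc1 RPE KO came from mice with the same floxed allele and Best-Cre, which deletes Tsc1, an inhibitor of the growth kinase complex mTORC1, in the pigment epithelium. The eyes behind each library came from 1 male and 1 female, pooled, so there is 1 sample per genotype and no test between genotypes. The neural retina was removed, the eye cups were digested with collagenase and dispase and then trypsin, and live cells were sorted before capture. No sample without digestion was analysed here, so a level present in the eye and one gained during digestion cannot be told apart.

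Immediate early genes are transcribed within minutes of a stimulus without new protein synthesis, by factors that already sit in the cell, such as serum response factor, CREB and NF-kappaB. Their products are transcription factors (the Fos and Jun families, which pair to form AP-1, and the Egr, Nr4a and Klf families) and proteins that end the signal, such as the phosphatase Dusp1 and the mRNA-decay protein Zfp36. Heat shock genes are driven by heat shock factor 1 when proteins misfold, and encode chaperones. Warm enzymatic digestion is a known trigger for both groups, which is why they are watched in single-cell data from many tissues.

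Promoter sequence was available from RefSeq (build GRCm38.p6) for 35 of the 42 members. Shown here are the 250 bases before the annotated start of 5 members whose levels divide the classes below, on the gene's own strand, with capitals marking a motif. In Fos the capitals are a match to the NF-kappaB consensus that begins 214 bases before the start. In Dusp1 they are the cyclic AMP response element TGACGTCA at 143 bases, and in Zfp36 a serum response element (CArG box) at 58 bases. In both Hspa1a and Hspa1b they are the heat shock element GAANNTTC at 104 bases.
Fos, chr12:85473640-85473889, plus strand: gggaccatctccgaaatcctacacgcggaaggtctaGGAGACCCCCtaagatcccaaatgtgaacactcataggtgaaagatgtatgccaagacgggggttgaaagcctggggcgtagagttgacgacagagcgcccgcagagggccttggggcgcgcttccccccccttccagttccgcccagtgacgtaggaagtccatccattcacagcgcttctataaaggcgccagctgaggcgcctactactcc
Dusp1, chr17:26508473-26508722, minus strand: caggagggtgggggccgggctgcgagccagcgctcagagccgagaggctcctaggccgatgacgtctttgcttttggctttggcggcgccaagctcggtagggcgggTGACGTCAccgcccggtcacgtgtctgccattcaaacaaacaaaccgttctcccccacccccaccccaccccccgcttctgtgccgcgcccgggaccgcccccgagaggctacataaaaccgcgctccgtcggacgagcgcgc
Zfp36, chr7:28379229-28379478, minus strand: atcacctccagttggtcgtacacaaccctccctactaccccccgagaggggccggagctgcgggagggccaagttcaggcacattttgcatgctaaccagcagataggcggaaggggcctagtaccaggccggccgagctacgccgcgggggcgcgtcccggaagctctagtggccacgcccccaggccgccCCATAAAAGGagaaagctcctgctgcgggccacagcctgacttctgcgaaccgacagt
Hspa1a, chr17:34972157-34972406, minus strand: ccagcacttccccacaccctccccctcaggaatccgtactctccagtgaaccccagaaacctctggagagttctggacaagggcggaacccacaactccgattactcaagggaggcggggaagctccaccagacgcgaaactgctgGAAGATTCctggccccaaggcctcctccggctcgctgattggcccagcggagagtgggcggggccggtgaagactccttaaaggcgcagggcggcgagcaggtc
Hspa1b, chr17:34959239-34959488, minus strand: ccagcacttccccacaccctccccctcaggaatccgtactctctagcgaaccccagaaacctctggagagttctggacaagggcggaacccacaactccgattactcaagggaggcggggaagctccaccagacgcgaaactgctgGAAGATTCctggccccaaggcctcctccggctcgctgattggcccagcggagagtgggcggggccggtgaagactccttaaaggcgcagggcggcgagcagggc
The Hspa1a and Hspa1b sequences were identical at 247 of 250 positions. These neighbouring genes are near-identical copies, and reads could be split between them by the counting, so their separate values are uncertain. Over windows of 250 bases before to 50 bases after the start, searched on both strands, the heat shock element stood in 3 of 4 heat shock members (Hspa1a, Hspa1b and Hsph1) and in 9.04% of 27025 genes. The cyclic AMP response element stood in 3 of 31 immediate early members (Btg2, Dusp1 and Ppp1r15a) and in 2.03% of genes. The CArG box stood in 3 of 31 (Dusp5, Egr2 and Zfp36) and in 1.81% of genes, and the AP-1 site TGANTCA in 2 of 31 (Tnfaip3 and Zfp36l1) and in 8.97% of genes. NF-kappaB matches stood in 8 of 31 (Egr2, Fos, Fosb, Fosl2, Ier3, Nfkbia, Nr4a1 and Tnfaip3) and in 9.55% of genes. They also stood in 2 of 4 heat shock members, Hspa1a and Hspa1b, at 133 bases before the start, which is left in lower case above. The heat shock element stood in 3 of 31 immediate early members (Fosl2, Jun and Sgk1). These are matches of letters in a short window, and distal elements lie outside it.

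The data hold 1524 cells in the Tsc1 flox library and 1853 in the Tsc1 RPE KO library, with medians of 4525 and 4617 UMIs per cell, and 2 cell barcodes occurred in both. Cells were clustered without the 42 members, and 13 classes were named "X-like" from marker genes. The 11 classes with at least 10 cells in each library were compared. They are B cell-like (412 and 320 cells, in the order flox and KO used throughout), T cell-like (340 and 374), NK cell-like (170 and 121), fibroblast-like (266 and 178), nonclassical monocyte-like (78 and 403), classical monocyte-like (114 and 152), rod-like (42 and 176), endothelial-like (41 and 48), plasmacytoid dendritic cell-like (17 and 16), RPE-like (12 and 46) and mast cell-like (13 and 12). No UMI of Tsc1 itself (0 in both libraries) was found in RPE-like cells, and 3′ tags can lie outside the deleted part, so it does not check the labels. Levels are in CPM, raw UMIs summed over a class's cells and scaled to 1000000 UMIs, and intervals are 95% exact intervals that cover counting error only. Ttr, a transthyretin gene of the pigment epithelium, was 102106 and 103673 CPM in RPE-like cells and at most 17.3 and 60.3 CPM in the other compared classes. Fewer cells with a message and less message per cell are not separated by these sums.

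The immediate early genes were detected in every compared class, but at very uneven levels. The sum of the 37 immediate early genes was highest in mast cell-like cells, at 51289 CPM (49593 to 53027) in the flox library and 54627 CPM (52593 to 56720) in the KO library. These values are 2.95 and 3.41 times the median class of each library. Fibroblast-like cells had 22615 and 25925 CPM, endothelial-like cells 21509 and 31657, nonclassical monocyte-like cells 22157 and 18121, and classical monocyte-like cells 19468 and 17795. Lymphoid classes were lower, with 16636 and 16032 CPM in B cell-like, 13652 and 13639 in NK cell-like and 10757 and 11106 in T cell-like cells. In the flox library the largest parts of the sum in B cell-like cells were Btg1 (3007 CPM), Junb (2493), Jund (1938) and Klf2 (1857). In T cell-like cells they were Btg1 (2468 CPM), Junb (1648), Klf2 (1310) and Jund (785). The sum alone therefore does not show a response in these classes. Plasmacytoid dendritic cell-like cells had 17384 and 11941 CPM. At the bottom stood the 2 cell types of the outer retina, rod-like cells with 2979 and 4086 CPM and RPE-like cells with 872 (580 to 1261) and 1759 (1529 to 2013). Barcodes with 10 to 100 UMIs, taken as RNA free in the suspension, held 14007 and 14166 CPM. Rod-like and RPE-like cells lay far below the free RNA. T cell-like cells (0.768 and 0.784 times the free RNA) and NK cell-like cells (0.975 and 0.963 times) also lay below it. Plasmacytoid dendritic cell-like cells were above it in the flox library and below it in the KO library (1.24 and 0.843 times). The other compared classes lay above it in both libraries.

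**Figure D1:**
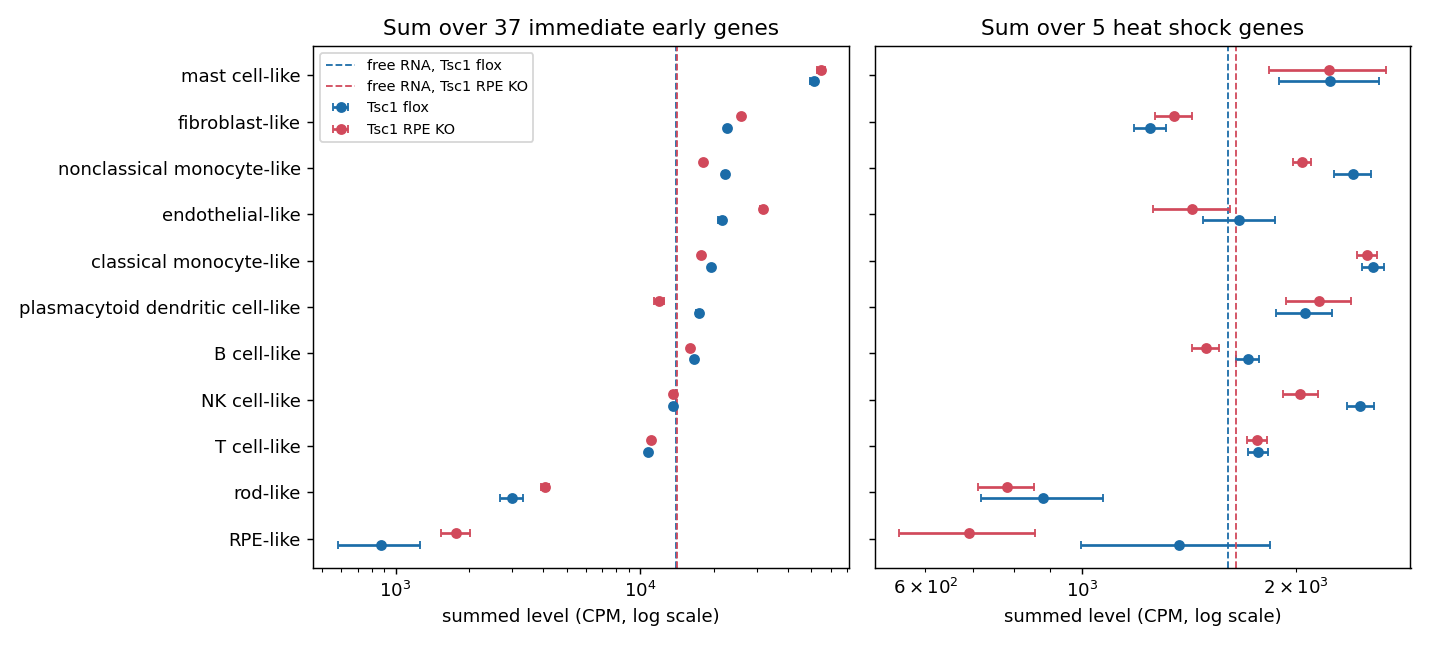
Summed level in CPM (log axes) of the 37 immediate early genes (left) and the 5 heat shock genes (right) for each class, with 1 point per library, 95% exact Poisson bars and the free RNA level as dashed lines. The immediate early sum runs from 872 CPM in RPE-like cells of the flox library to 54627 CPM in mast cell-like cells of the KO library, while the heat shock sums lie between 692 and 2575 CPM.

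Heat shock genes did not follow that order. Their sum was highest in classical monocyte-like cells, with 2575 CPM (2482 to 2671) and 2524 CPM (2442 to 2607), only 1.46 and 1.43 times the median class. NK cell-like cells had 2471 and 2032 CPM, nonclassical monocyte-like cells 2411 and 2045, and mast cell-like cells 2240 and 2230. Fibroblast-like cells, near the top for immediate early genes, had 1246 and 1346 CPM, below the free RNA at 1603 and 1646 CPM. Most of this sum is Hspa8, the constitutive cytosolic Hsp70, and without it the highest class became fibroblast-like in both libraries, at 1.69 and 2.12 times the median class.

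A member was counted for a class when its level was at least 2-fold above that of all other named cells in both libraries, and the same rule over 12040 genes gives the background. Mast cell-like cells carried 18 of 42 members against 5.04% of all genes. Fibroblast-like cells carried 14 of 42, with a background of 23.9%. Nonclassical monocyte-like cells carried 7 (background 6.84%), classical monocyte-like cells 6 (5.06%), endothelial-like cells 6 (13.4%), NK cell-like cells 5 (3.8%) and B cell-like cells 4 (3.95%). Rod-like cells carried 3 (18%), RPE-like cells 1 (8.16%), T cell-like cells 1 (3.56%) and plasmacytoid dendritic cell-like cells 0 (3.41%). Read against those shares, rods, pigment epithelium, T cells and plasmacytoid dendritic cells were at or under the background. The endothelial count, 6 of 42, was close to it. The top class was the same in both libraries for 33 of 42 members, and mast cell-like cells were that class for 17 of them. For 36 members at least 1 class was 2-fold above the median class in both libraries. The other 6 (Jund, Klf6, Btg2, Mcl1, Hspa8 and Hsph1) had no such class.

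**Figure D2:**
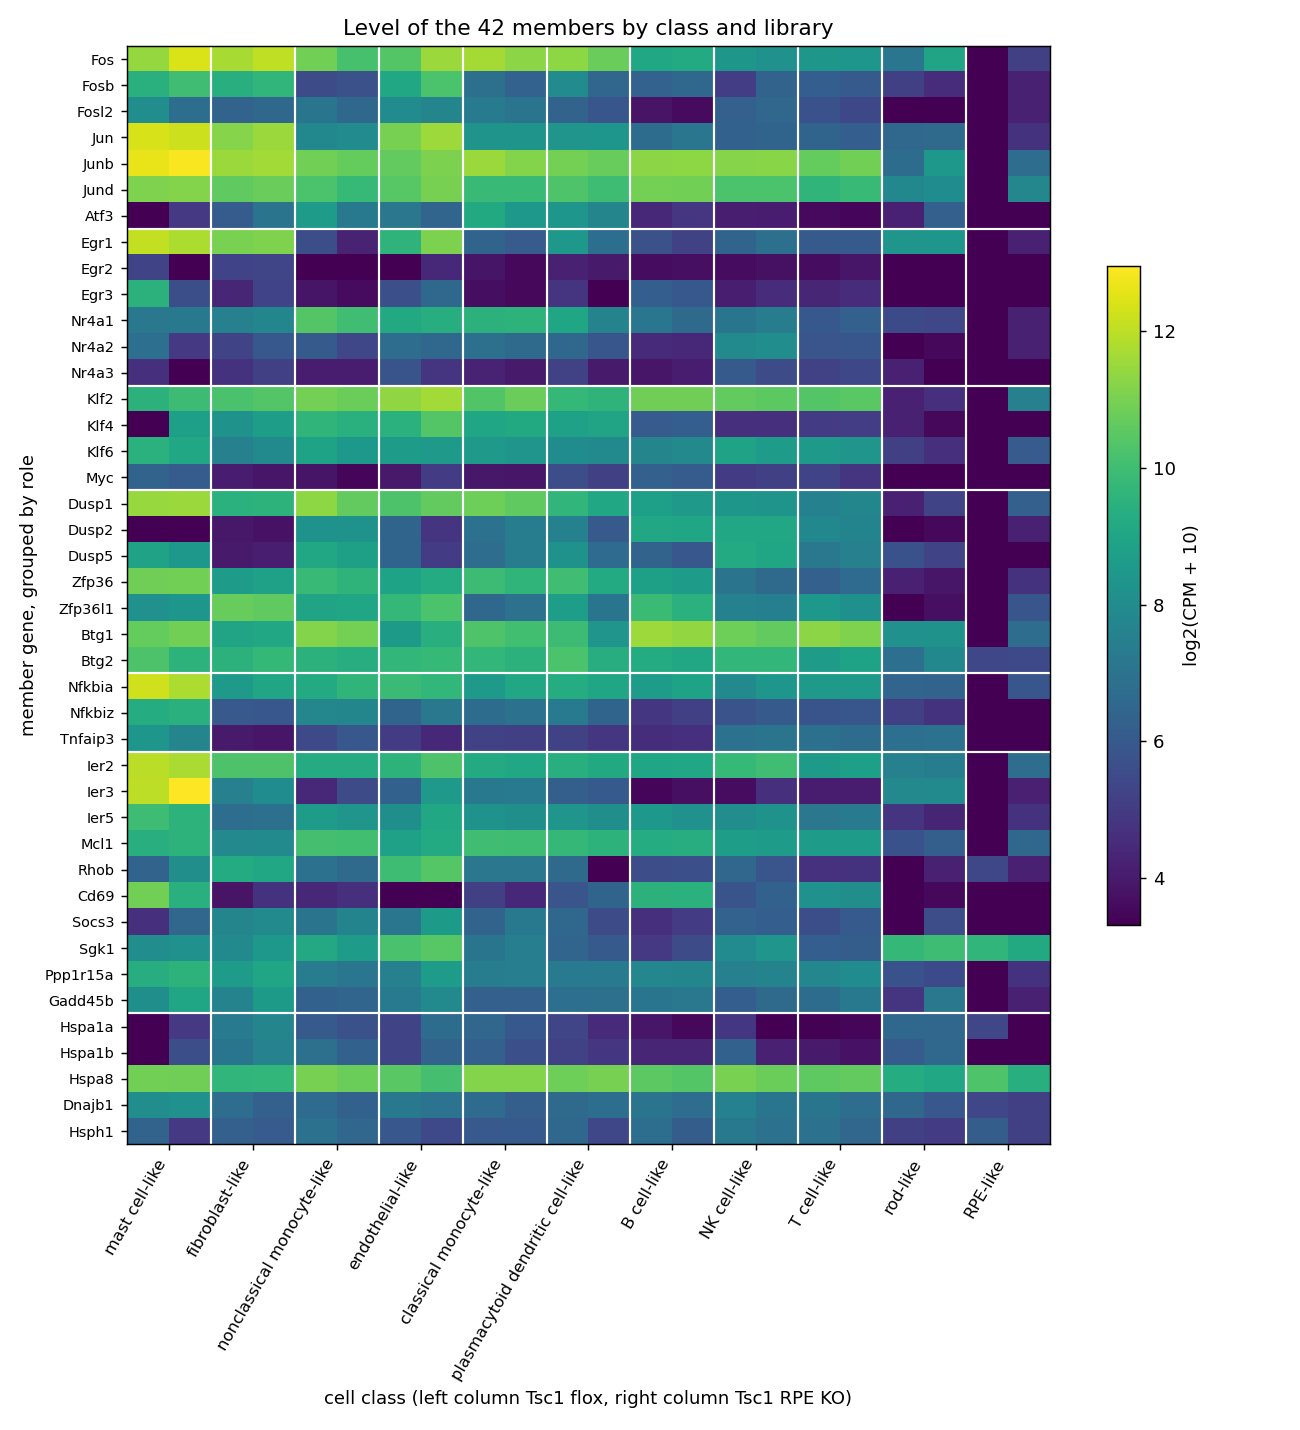
Level of each of the 42 members as log2(CPM + 10), in rows grouped by role, for the 11 classes, with the flox library left and the KO library right in each class. Jun and Egr1 are bright in mast, fibroblast and endothelial cells, and Fos in mast, fibroblast and classical monocyte-like cells. Nr4a1 is bright in monocytes and Dusp1 in monocytes and mast cells, and in the RPE-like columns Sgk1 and Hspa8 stand out.

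Among the AP-1 genes, Fos met the 2-fold class rule in fibroblast-like and classical monocyte-like cells. Its level was 3278 and 4184 CPM in fibroblast-like cells, 3214 and 2487 in classical monocyte-like cells and 2760 and 5445 in mast cell-like cells, where 1 cell held 24.2% and 36.2% of the Fos UMIs. Plasmacytoid dendritic cell-like cells had 2547 and 1732 CPM. T cell-like cells had 337 and 323 CPM and NK cell-like cells 336 and 285. Jun, the partner of Fos in AP-1, separated the classes differently. It stood at 2360 and 2906 CPM in fibroblast-like, 2007 and 2991 in endothelial-like and 5267 and 4721 in mast cell-like cells, but at 308 and 308 in classical monocyte-like cells. Classical monocytes thus had as much Fos as fibroblasts in the flox library with far less Jun. Junb was more even, from 1579 to 6424 CPM in the flox library over the 9 classes other than rod-like and RPE-like cells. Fosb was 667 and 796 CPM in fibroblast-like, 526 and 1178 in endothelial-like and 682 and 1025 in mast cell-like cells, against 35.5 and 43.0 in nonclassical monocyte-like cells. Atf3, a stress-induced bZIP factor, met the 2-fold class rule in classical monocyte-like cells alone, with 567 and 346 CPM. It was 382 and 138 CPM in nonclassical monocyte-like and 325 and 201 in plasmacytoid dendritic cell-like cells, and 1.97 and 0.970 in T cell-like cells. Fosl2 was 252 and 100.5 CPM in mast cell-like and 243 and 198 in endothelial-like cells. Jund was even, from 785 to 2166 CPM in the flox library over the same 9 classes. For Jun, Junb and Jund, genes on the other strand overlap the locus, and use of strand in the counting is not given in the sources used here.

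Each of the Egr and Nr4a genes met the 2-fold class rule in at least 1 class. Egr1 met it in mast cell-like and fibroblast-like cells, Egr2 in fibroblast-like cells, and Egr3 in B cell-like and mast cell-like cells. Nr4a1 met it in both monocyte-like classes, and Nr4a2 and Nr4a3 in NK cell-like cells. Egr1, a zinc finger factor of the serum response, was 2060 and 2170 CPM in fibroblast-like, 758 and 2113 in endothelial-like and 4258 and 3476 in mast cell-like cells. In monocytes it was low, at 75.3 and 57.3 CPM in classical and 40.0 and 9.32 in nonclassical monocyte-like cells. Nr4a1, an orphan nuclear receptor that nonclassical monocytes need for their development, was 1338 and 1017 CPM in nonclassical and 728 and 737 in classical monocyte-like cells. It was 573 and 640 CPM in endothelial-like and 172 and 204 in fibroblast-like cells. Its relatives Nr4a2 and Nr4a3 were highest in NK cell-like cells, at 231 and 253 CPM and at 56.9 and 37.4 CPM. Egr3 in B cell-like cells was 62.9 and 53.7 CPM, while in mast cell-like cells it was 727 CPM in the flox library and 40.2 in the KO library, where it rested on 2 UMIs. Egr2 stayed at or under 30.9 CPM in every class of both libraries.

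Of the Krüppel-like factors, Klf4 alone met the 2-fold class rule, in endothelial-like and nonclassical monocyte-like cells. Klf2, which responds to blood flow in endothelium and keeps lymphocytes quiescent, was 2650 and 3161 CPM in endothelial-like cells. It was also 1857 and 1866 CPM in B cell-like, 1608 and 1488 in NK cell-like, 1310 and 1419 in T cell-like and 1947 and 1784 in nonclassical monocyte-like cells, so B and T cells with little Fos had much Klf2. Klf4 was 712 and 1337 CPM in endothelial-like, 786 and 677 in nonclassical and 494 and 566 in classical monocyte-like cells, and 23.2 and 23.3 in T cell-like cells. Klf6 ranged only from 174 to 697 CPM over the 9 classes other than rod-like and RPE-like cells in the flox library. In B cell-like cells Myc was 67.8 and 59.7 CPM, against 5.38 and 4.89 in classical monocyte-like cells.

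Among the genes that end the signal, Dusp1 was highest in mast cell-like cells and Dusp2 and Dusp5 in NK cell-like cells, in both libraries. Dusp1, which dephosphorylates p38 and JNK, was 2535 and 1592 CPM in nonclassical and 1818 and 1536 in classical monocyte-like cells, 2804 and 2893 in mast cell-like and 1209 and 1586 in endothelial-like cells. It was 176 and 207 CPM in T cell-like cells. Dusp2, a phosphatase of activated lymphocytes, was 521 and 494 CPM in B cell-like and 522 and 540 in NK cell-like cells, and 5.23 and 3.86 in fibroblast-like cells. Dusp5 was highest in NK cell-like cells at 591 and 506 CPM. Zfp36, which binds AU-rich mRNAs and speeds their decay, was 1840 and 1929 CPM in mast cell-like and 953 and 780 in classical monocyte-like cells, and its paralog Zfp36l1 was 1676 and 1563 in fibroblast-like and 950 and 710 in B cell-like cells. Btg1, an antiproliferative gene of resting lymphocytes, was 3007 and 2699 CPM in B cell-like and 2468 and 2201 in T cell-like cells, against 486 and 531 in fibroblast-like cells. Btg2 was more even, with its highest class 1.68 and 1.35 times the median class. The Dusp1, Dusp5 and Zfp36 loci overlap other counted genes.

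The NF-kappaB inhibitor gene Nfkbia was 4866 and 3536 CPM in mast cell-like cells, and the next class had 937 (endothelial-like, flox) and 833 (endothelial-like, KO). Nfkbiz, a nuclear member of the same inhibitor family, was 608 and 683 CPM in mast cell-like and 213 and 204 in nonclassical monocyte-like cells. Tnfaip3, the ubiquitin-editing protein A20, was 326 and 201 CPM in mast cell-like, 111 and 122 in NK cell-like, 107 and 97.0 in T cell-like and 104 and 109 in rod-like cells.

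Of the remaining early genes, Ier2 was 4006 and 3395 CPM in mast cell-like and 1235 and 1219 in fibroblast-like cells. Ier3, a survival gene, was 4110 and 7956 CPM in mast cell-like cells, 224 and 230 in rod-like cells and 1.21 and 3.02 in B cell-like cells. Mcl1, an anti-apoptotic Bcl2 relative, was 1105 and 1054 CPM in nonclassical and 1011 and 985 in classical monocyte-like cells. Rhob, a small GTPase, was 989 and 1354 CPM in endothelial-like and 598 and 540 in fibroblast-like cells. Ier5 was 994 and 743 CPM in mast cell-like and 266 and 532 in endothelial-like cells. Ppp1r15a, which restarts translation after stress, was 638 and 743 CPM in mast cell-like and 393 and 495 in fibroblast-like cells. Gadd45b was 267 and 502 CPM in mast cell-like cells. Socs3, an inhibitor of cytokine signals, was 201 and 235 CPM in fibroblast-like and 127 and 374 in endothelial-like cells. Cd69, an early activation marker of lymphocytes, was 729 and 700 CPM in B cell-like and 283 and 261 in T cell-like cells, with 0 UMIs in endothelial-like cells. Sgk1, a kinase gene induced by serum and glucocorticoids, was 1169 and 1388 CPM in endothelial-like, 837 and 981 in rod-like and 810 and 567 in RPE-like cells, against 19.97 and 35.5 in B cell-like cells. Its profile was unlike that of Fos, with a Pearson r of -0.17 over the 22 class and library points, which share the 2 libraries and differ in depth.

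The inducible and constitutive heat shock genes had different top classes. Hspa1a and Hspa1b, the inducible Hsp70 genes with the heat shock element shown above, were highest in fibroblast-like cells, at 147 and 201 CPM and at 123 and 185 CPM. That level lay in cluster 2 of the class (236 and 154 cells), with Hspa1a at 169 and 248 CPM and Hspa1b at 141 and 221 CPM. In cluster 13 (30 and 24 cells) Hspa1a was 28.2 and 0 CPM and Hspa1b 22.6 and 33.4 CPM. T cell-like cells held 1 and 2 UMIs of Hspa1a. Rod-like cells had 86.3 and 81.2 CPM of Hspa1a and 60.4 and 86.1 CPM of Hspa1b. Hspa8 was 2279 and 2306 CPM in classical monocyte-like and 2066 and 1784 in NK cell-like cells, and 808 and 834 in fibroblast-like cells. Hsph1, an Hsp110 that resets Hsp70, was highest in NK cell-like cells at 139 and 116 CPM. Dnajb1, an Hsp40 that hands clients to Hsp70, was highest in mast cell-like cells at 252 and 281 CPM.

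**Figure D3:**
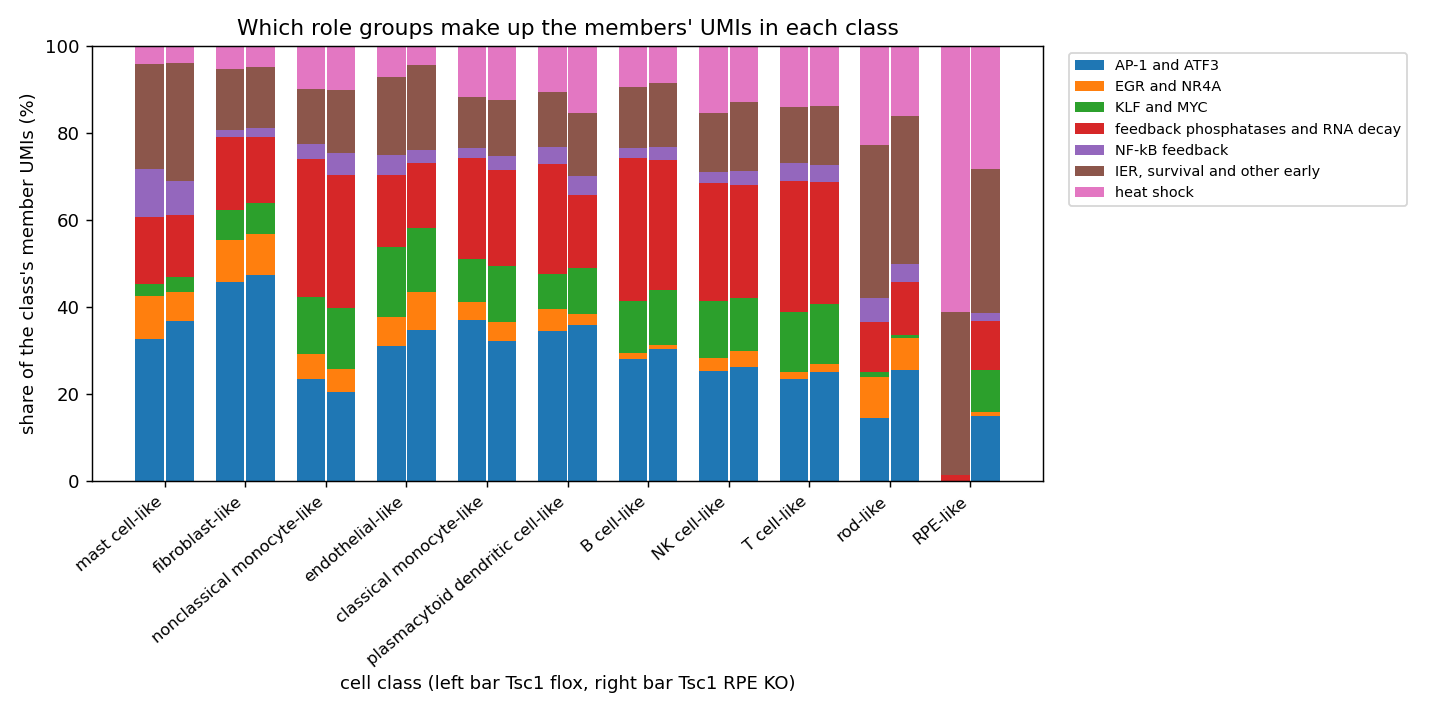
Share (%) of each class's member UMIs that falls to each of the 7 role groups, with the flox library as the left bar and the KO library as the right bar. AP-1 and ATF3 genes take 45.8% and 47.5% in fibroblast-like cells, while in the RPE-like cells of the flox library heat shock genes take 61.1%.

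The make-up of the members' UMIs by role repeated between libraries in the large classes. AP-1 and ATF3 genes gave 45.8% and 47.5% of the members' UMIs in fibroblast-like cells, but 23.4% and 20.6% in nonclassical monocyte-like and 23.6% and 25.2% in T cell-like cells. The phosphatase and RNA-decay group took 31.7% and 30.6% in nonclassical monocyte-like cells, more than any other group there, and in B cell-like cells 32.8% and 29.9%. NF-kappaB feedback genes took 10.8% and 7.77% in mast cell-like cells and between 1.72% and 5.37% in every other compared class of both libraries except RPE-like cells, where they took 0% and 2.04%.

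In RPE-like cells, the class the knockout targets, the immediate early sum was the lowest of the 11 classes in both libraries. The 12 cells of the flox library held 32094 UMIs, and 35 of 42 members were at 0 there. Of their 28 immediate early UMIs, 26 were Sgk1, seen in 11 of 12 cells. Fos had 0 UMIs, which allows up to 93.5 CPM (3 UMIs over the class). In the KO library 13 members were at 0 over 119983 UMIs. Its 46 cells held 211 immediate early UMIs, of which 68 were Sgk1, seen in 35 cells. Sgk1 was found in 91.7% and 76.1% of RPE-like cells (median depth 2582 and 2199.5 UMIs), and in 6.31% and 11.3% of B cell-like cells (3906.5 and 3868 UMIs). After thinning each cell to 1000 UMIs the shares were 58.3% and 54.3% against 1.94% and 3.13%. B cell-like cells had the lowest Sgk1 level of the 11 classes in both libraries. Endothelial-like and rod-like cells had higher levels than RPE-like cells in both.

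Of the RPE-like barcodes in the KO library, 3 held 206 of the class's 241 UMIs of immune markers, and are called mixed here. They carried 113 of the 211 immediate early UMIs. With them the KO sum was 2.02 times the flox sum (1.36 to 3.11), and without them it was 964 CPM (783 to 1175) and 1.11 times the flox sum (0.720 to 1.75). Without Sgk1 and without those barcodes, 41 UMIs in the KO library stood against 2 in the flox library, a ratio of 6.47 (1.68 to 55.2). Sgk1 was 0.700 times its flox level (0.439 to 1.15). Hspa8 was lower in the KO library, with 77 UMIs (642 CPM) against 40 UMIs (1246 CPM) in the flox library. The ratio was 0.515 (0.347 to 0.775), and 0.371 without the mixed barcodes. Only these 2 members reached 50 UMIs in the class. Over the class, markers of B cells summed to 31.2 and 850 CPM and markers of NK cells to 31.2 and 700.1 CPM, with 10 of 11 and 2 of 11 B cell markers at 0 and 10 of 11 and 1 of 11 NK cell markers at 0. Beyond the sums without the mixed barcodes, the part of this RNA in the Hspa8 difference was not tested.

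Rod-like cells, photoreceptors left on the eye cup, showed a small set. Egr1 was 319 and 323 CPM, Ier3 224 and 230, and Sgk1 837 and 981, while Klf2 was 8.63 and 14.9 CPM. Fos was 130 CPM from 15 UMIs in the flox library and 489 CPM from 295 UMIs in the KO library. The class joins cluster 8 (25 and 156 cells) and cluster 14 (17 and 20 cells), whose shares of it differ between libraries. Fos was 154 and 520 CPM in cluster 8 and 63.8 and 70.5 CPM in cluster 14, and Egr1 was 414 and 330 CPM in cluster 8 and 63.8 and 235 CPM in cluster 14. Fos was seen in 16.7% and 47.7% of rod-like cells, at median depths of 2074.5 and 2798 UMIs, and in 7.14% and 27.8% after thinning to 1000 UMIs. In RPE-like cells, with lower Fos in both libraries, the share was 0% and 4.35%, and 0% in both after thinning.

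Within classes the share of immediate early UMIs was also uneven from cell to cell. In fibroblast-like cluster 2, led by Edn3 and Pgf, the immediate early genes took a median of 2.33% of a cell's UMIs in the flox library (10th to 90th percentile 0.376% to 4.87%) and 2.93% in the KO library (0.525% to 6.07%). In cluster 13, led by Sfrp2 and Fmod, the medians were 0.820% and 0.667%. The level of the sum was 24793 and 30399 CPM in cluster 2 and 10663 and 7118 CPM in cluster 13, while Klf4 was higher in cluster 13, at 655 and 435 CPM against 236 and 391 CPM. Classical monocyte-like cells were more alike, with 10th to 90th percentiles of 1.32% to 2.70% and 1.15% to 2.42%. The lowest mast cell-like cell had 3.98% in the flox library and 3.05% in the KO library, above the 90th percentile of classical monocyte-like cells in the same library.

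**Figure D4:**
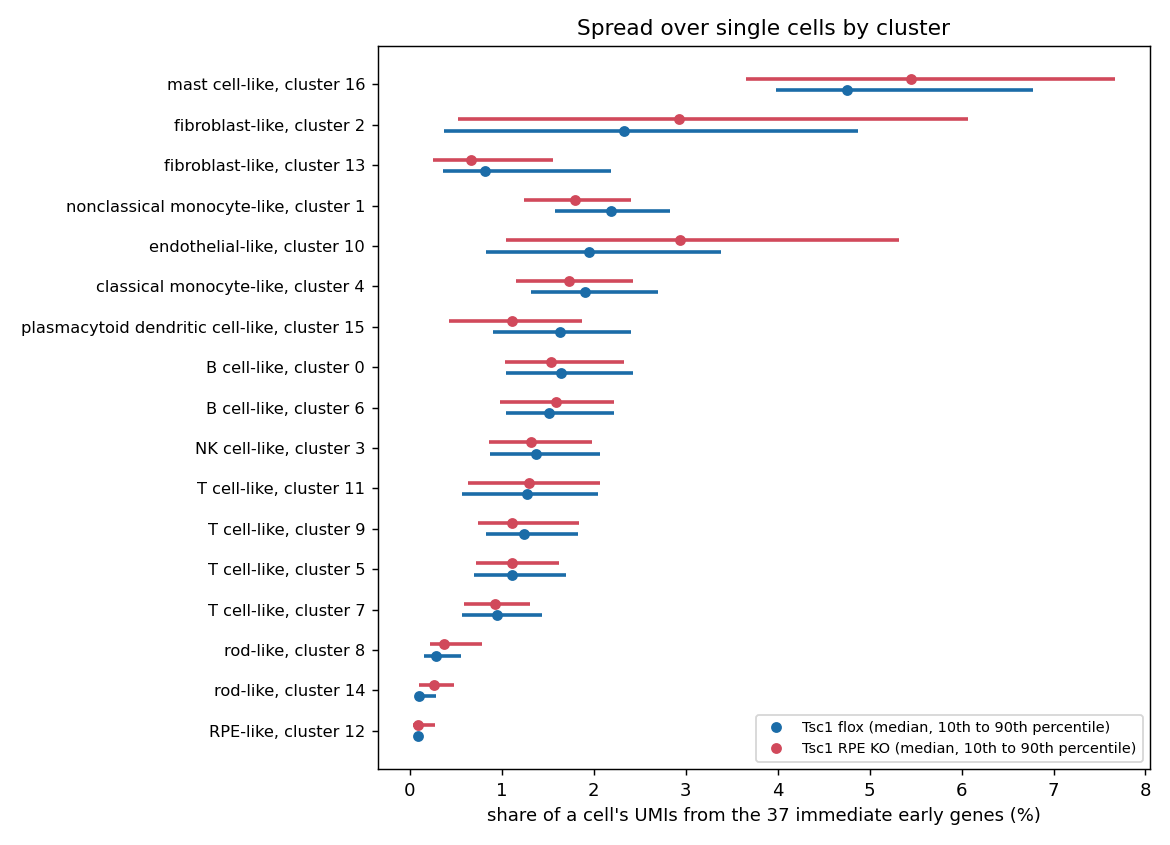
Share (%) of a cell's UMIs that came from the 37 immediate early genes, by cluster and library, as the median (point) and the 10th to 90th percentile (line). Fibroblast-like cluster 2 spans 0.376% to 4.87% in the flox library, and RPE-like cells have medians of 0.0854% and 0.0900%.

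In fibroblast-like cells, with clusters 2 and 13 pooled, the AP-1 and Egr genes were found in the same cells. Fos was detected in 194 of 266 and 133 of 178 cells. In the flox library Jun was detected in 90.2% of cells with Fos and in 27.8% of cells without it, and Egr1 in 96.4% and 27.8%. In the KO library the shares were 91.7% and 42.2% for Jun and 94.7% and 48.9% for Egr1. Klf2 differed less between the same cells, with 84.5% and 66.7% in the flox library and 82.7% and 64.4% in the KO library. Cells with Fos had a median of 4262 UMIs and those without 3509 in the flox library. In the KO library the medians were 3945 and 4349, so the order of depth was opposite in the libraries. Cluster 13 was deeper, with medians of 5434 and 6322 UMIs against 3902 and 3848.5 in cluster 2. The part of the clusters in these shares and depths was not tested. In classical monocyte-like cells Fos was found in 114 of 114 and 150 of 152 cells.

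Between the libraries, most members in most classes lay within 1.5-fold, and no test is possible with 1 library per genotype. Members with at least 50 UMIs over both libraries in a class were compared, and the share of all such genes past 1.5-fold is the background. The immediate early sum in the KO library relative to the flox library was 1.03 in the median class. The heat shock sum was 0.888 times the flox sum in the median class (0.715 to 1.11). Single cells of a library are not replicates, and 2 pooled mice stand behind each value.

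Endothelial-like cells had more members at higher level in the KO library than any other class. The immediate early sum was 1.47 times higher in the KO library (1.41 to 1.53), and 11 of 27 measured members were past 1.5-fold higher and 0 lower, against 7.28% and 8.98% of all measured genes. The median log2 ratio of the members was 0.51, and that of all measured genes -0.04. Egr1 was 758 CPM in the flox library and 2113 in the KO library, a ratio of 2.79 (2.28 to 3.43), and Fos 1319 and 2889 CPM, a ratio of 2.19 (1.87 to 2.57). Ier3 rested on 12 and 62 UMIs and was 5.06 times higher (2.70 to 10.3). Without the cell with the most immediate early UMIs in each library, the sum was 1.43 times higher, Fos 2.09 and Egr1 2.82 times. Fibroblast markers summed to 926 CPM in the flox library (4 of 10 at 0) and 1813 CPM in the KO library (6 of 10 at 0) in these 41 and 48 cells, and the endothelial markers to 21978 and 17565 CPM. The part of that RNA in the difference was not tested.

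Plasmacytoid dendritic cell-like cells had more members at lower level than any other class. The immediate early sum was 0.687 times the flox level (0.650 to 0.726), with 11 of 24 members past 1.5-fold lower and 0 higher, against 11.1% and 6.23% of all genes. Btg1 was 976 and 320 CPM (ratio 0.328), Nr4a1 495 and 188 CPM (0.381) and Dusp5 299 and 94.1 CPM (0.314). Egr1, at 338 and 100 CPM, rested on 1 cell for 56.4% and 68.8% of its UMIs. B cell markers summed to 1410 CPM (0 of 11 at 0) in the flox library and to 282 CPM (8 of 11 at 0) in the KO library in these 17 and 16 cells. Of these barcodes 5 and 2 were mixed, and without them the ratio of sums was 0.676. Without the cell with the most immediate early UMIs the ratio of sums was 0.668.

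Nonclassical monocyte-like cells, 78 in the flox library and 403 in the KO library, were lower for several members. The sum was 0.818 times the flox level (0.800 to 0.836). Past 1.5-fold, 5 of 36 members were lower (background 6.91%) and 3 higher (11.4%). Atf3 was 382 and 138 CPM, a ratio of 0.361 (0.299 to 0.438), Fos 1887 and 1145 CPM (0.607), and Dusp1 2535 and 1592 CPM (0.628). In a separate, finer clustering (resolution 2), 3 clusters were named nonclassical monocyte-like, with 46, 9 and 32 flox cells and 144, 169 and 118 KO cells, so their cells are not all those of the class above. The ratio for Fos was 0.591, 0.661 and 0.590 there, and for Atf3 0.429, 0.309 and 0.319, with the middle value of each resting on 9 flox cells.

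Fibroblast-like cells had 5 of 35 members past 1.5-fold higher (Atf3, Gadd45b, Hspa1b, Nr4a2 and Sgk1) and 0 lower, against 4.11% and 7% of genes, and the immediate early sum was 1.15 times higher (1.13 to 1.17). Gadd45b, a stress gene of the MAP kinase pathway, was 188 and 374 CPM, a ratio of 1.99 (1.66 to 2.38). The direction of the sum differed between clusters, at 1.23 times in cluster 2 and 0.668 times in cluster 13, which has 30 and 24 cells. Atf3 also varied, at 2.85 times (1.98 to 4.12) and 0.535 times (0.190 to 1.33) in 2 clusters of the finer clustering, and 0 CPM in both libraries in the third.

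The counts in the other classes were as follows. Rod-like cells had 4 of 16 higher (Btg2, Fos, Gadd45b and Junb) and 0 lower, with backgrounds of 17% and 6.38%. Mast cell-like cells had 3 of 22 higher (Fos, Fosb and Ier3) and 3 lower (Btg2, Cd69 and Egr3), against 5.45% and 12.4%. Their Cd69 was 1929 and 683 CPM, a ratio of 0.354 (0.235 to 0.520). Classical monocyte-like cells had 3 of 37 higher (Dusp5, Nfkbia and Socs3; 6.01%) and 3 lower (Atf3, Fosb and Hspa1b; 4.76%). With a minimum of 500 UMIs per barcode, the ratio in this class was 0.504 for Dusp5, 1.06 for Fosb and 1.15 for Hspa1b, each on the other side of 1, and 0.882 for Atf3. B cell-like cells had 1 of 33 higher (2.66%) and 2 lower (4.05%), and T cell-like cells 0 of 36 higher (4.58%) and 1 lower (2.37%). NK cell-like cells had 1 of 35 higher (Fosb; 3.62%) and 3 lower (Hspa1b, Nr4a3 and Rhob; 5.32%). Fosb rested on 19 and 43 UMIs there, and 1 cell held 39.5% of those in the KO library. Hspa1b there was 69.3 CPM (56 UMIs) and 8.49 CPM (5 UMIs), a ratio of 0.123 (0.0383 to 0.303), while Hspa1a, whose reads may be shared with it, was 18.6 CPM and 0.

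**Figure D5:**
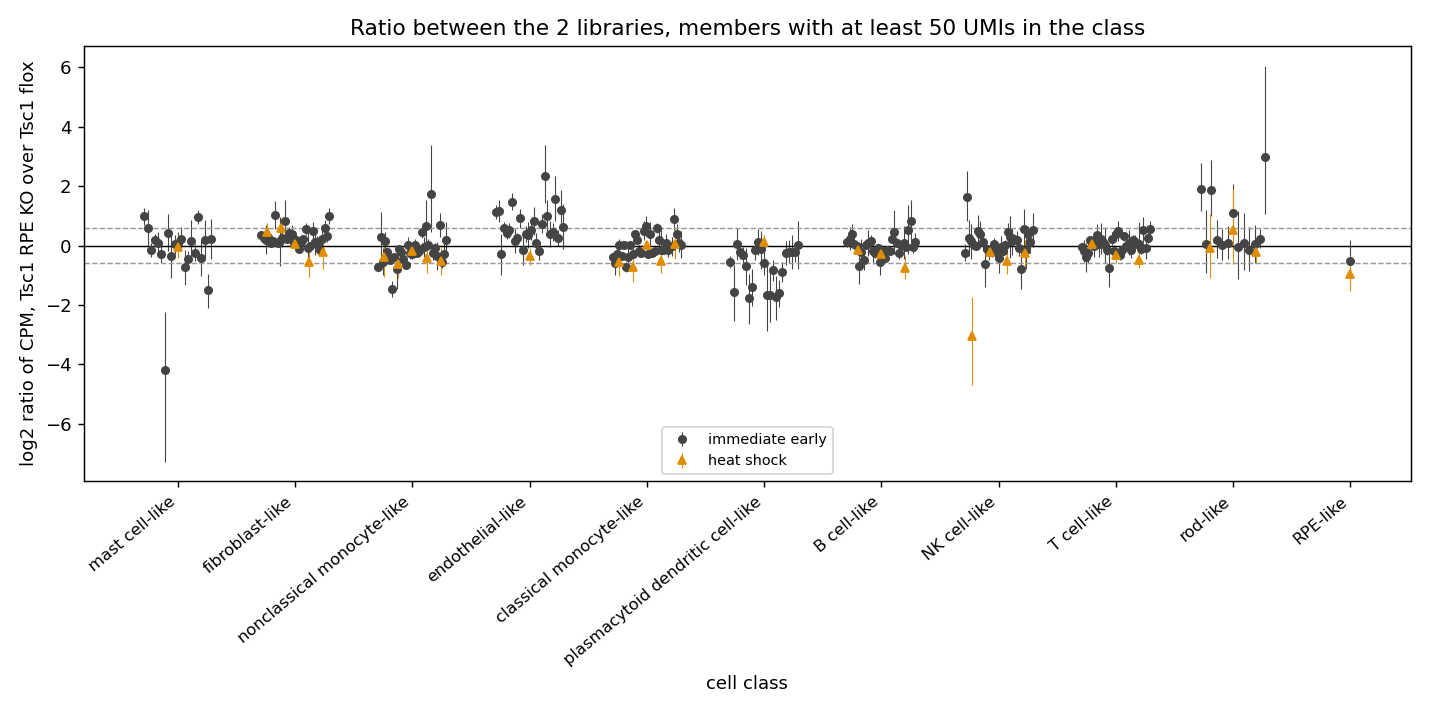
Log2 ratio of CPM between the KO and flox libraries for each member with at least 50 UMIs in a class, with 95% exact intervals for counting error; dashed lines mark 1.5-fold. Endothelial-like members lie mostly above 0 (median 0.51) and plasmacytoid dendritic cell-like members below 0 (median -0.44).

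Unlike the members, the genes of the other lists below were not left out of the clustering and could help to form the classes. Other early genes from a list of 53, of which 49 had enough UMIs, were counted by the same class rule. It was met by 18 of 49 in fibroblast-like cells (background 23.9%), 16 in endothelial-like cells (13.4%) and 11 in mast cell-like cells (5.04%). It was met by 9 in nonclassical monocyte-like (6.84%), 6 in NK cell-like (3.8%), 3 in classical monocyte-like (5.06%), 3 in rod-like (18%) and 2 in plasmacytoid dendritic cell-like cells (3.41%). In B cell-like and T cell-like cells it was met by 1 each (3.95% and 3.56%), and in RPE-like cells by 0 (8.16%). Cebpb, a bZIP factor, was 2937 and 3531 CPM in classical and 3793 and 4041 in nonclassical monocyte-like cells. Ccl4, a chemokine, was 23916 and 14706 CPM in mast cell-like and 1175 and 2266 in NK cell-like cells. Zfp36l2 was 1475 and 1442 CPM in NK cell-like cells and Pim1 748 and 600 CPM in nonclassical monocyte-like cells. Among 21 other chaperones of the heat shock response, fibroblast-like cells met the rule for 5 (Bag3, Cryab, Dnajb4, Hspb1 and Hspb8), a share at the background of 23.9%. Endothelial-like cells also met it for 5 (Bag3, Dnajb4, Hspa2, Hspb1 and Hspb8), with a background of 13.4%, and every other class for at most 2. Ubb, a polyubiquitin gene, was 6691 and 7454 CPM in mast cell-like cells, and Hsp90aa1 was 3350 and 3137 CPM in rod-like and 1776 and 925 in RPE-like cells. Hsp90ab1 was 1996.7 and 1534 CPM in NK cell-like cells, and Dnaja1 was 1347 and 1114 CPM there. Of 13 transcription factors upstream of these genes none met the rule in T cell-like, B cell-like, rod-like, RPE-like, mast cell-like or classical monocyte-like cells. Nfkb1 was 284 and 233 CPM in nonclassical monocyte-like cells, and Creb1, Elk4 and Atf1 were 75.0, 72.0 and 52.6 CPM in B cell-like cells of the flox library. Of 13 chaperones of the endoplasmic reticulum and mitochondria, 0 met the rule in fibroblast-like and endothelial-like cells, and Hspa5, the main one of the endoplasmic reticulum, was 573 and 599 CPM in fibroblast-like cells.

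The genes whose profile over the 22 class and library points was most like that of Fos, of 11998 ranked, were Mafg, Mapk7, Neat1, Wsb1, Kctd12, Csnk1e, Milr1, Diaph2, Adam17 and Rassf1, with Pearson r from 0.859 to 0.893 on log2(CPM + 10). Each of them was at 0 CPM in RPE-like cells of the flox library, as was Fos, and Mapk7 was at most 22.7 CPM in any class. How far r rests on such low points was not tested. Among the members, Zfp36 (0.87), Btg2 (0.87), Dusp1 (0.87), Jun (0.86) and Junb (0.86) were nearest to Fos, and Dusp2 (0.05), Hsph1 (-0.01) and Sgk1 (-0.17) farthest.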

How the data were processed

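RNA of single cells from mouse RPE/choroid was measured in 2 droplet libraries, 1 per genotype. The deposited values are raw counts of UMIs per gene and barcode for all barcodes, with no normalization by the authors. Cell Ranger 2.1.1 with mm10 was used per the submitters' processing notes, while the deposited matrix headers carry version 4 of that tool, and strand use in counting is not given in the sources used here.

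Barcodes were kept with at least 0.1 of the 99th percentile of UMIs among the top 3000 barcodes, at least 200 genes and at most 20% mitochondrial UMIs, and 8 (flox) and 19 (KO) doublets called by Scrublet were removed. Cells were clustered in scanpy 1.11.5 on 2000 variable genes without the members, with 30 components, 20 neighbours and Leiden resolution 1, giving 19 clusters. A cluster was named from at least 3 fixed markers in at least 10% of its cells and 2-fold above the rest. A barcode was called mixed when it held at least 10 UMIs of markers of another lineage. UMIs were summed per class and library, and scaled to CPM. Intervals were exact Poisson and, for ratios, exact conditional binomial intervals at 95%. The ratio intervals were also run on simulated Poisson counts. Those counts follow the model of the intervals and hold no spread between cells, so that run does not check them for these data. A median depth of 4525 and 4617 UMIs per cell sets the precision, and 3 UMIs over a class were taken as the limit for a count of 0. With 1 sample per genotype there was no test.

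The members and all gene lists were chosen with earlier results of these data known. The named genes were the members with the most UMIs per role group (up to 3), members 2-fold above the median class, up to 4 genes per other list by UMIs and the 10 genes most like Fos. Loci and promoters were taken from GRCm38. Alternatives covered barcode minimum, scaling, free RNA, clustering, averaging and thresholds.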

Additional observations from a re-analysis of the deposited data

Results flagged for a closer look

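With 1 library per genotype the following differences between classes were not tested. They are the members that were past 1.5-fold higher in the KO library in at least 1 class and past 1.5-fold lower in another. A class was counted only with at least 50 UMIs of the member over both libraries and an interval of the ratio that excluded 1. Each such class is given as the ratio of KO to flox CPM. Fosb in mast cell-like cells was past 1.5-fold higher, but its interval (0.988 to 2.29) included 1, so that class is left out.

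Fos was 2.19 times its flox level in endothelial-like, 1.97 in mast cell-like and 3.77 in rod-like cells, but 0.607 in nonclassical monocyte-like cells. In the 2 rod-like clusters, Fos was 154 and 520 CPM in cluster 8 and 63.8 and 70.5 CPM in cluster 14. Fosb was 3.11 in NK cell-like and 2.24 in endothelial-like cells, and 0.663 in classical monocyte-like and 0.342 in plasmacytoid dendritic cell-like cells. In NK cell-like cells 1 cell held 39.5% of the 43 Fosb UMIs of the KO library, and the classical monocyte-like value was 1.06 with a minimum of 500 UMIs per barcode. Atf3 was 2.04 in fibroblast-like cells, and 0.611 in classical monocyte-like, 0.361 in nonclassical monocyte-like and 0.617 in plasmacytoid dendritic cell-like cells. In a finer clustering it was 2.85 in 1 fibroblast-like cluster and 0.535 in another. Egr1 was 2.79 in endothelial-like cells, 0.624 in B cell-like and 0.297 in plasmacytoid dendritic cell-like cells. Nr4a2 was 1.78 in fibroblast-like and 0.576 in nonclassical monocyte-like cells.

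Among the genes that end the signal, Dusp5 was 1.58 in classical monocyte-like and 0.314 in plasmacytoid dendritic cell-like cells. The first value was 1.07 with a minimum of 1000 UMIs per barcode and 0.504 with 500, so its direction depends on that minimum. Btg1 was 1.76 in endothelial-like and 0.328 in plasmacytoid dendritic cell-like cells. Btg2 was 2.11 in rod-like, 0.611 in mast cell-like and 0.54 in plasmacytoid dendritic cell-like cells. The heat shock gene Hspa1b, whose reads may be shared with Hspa1a, was 1.51 in fibroblast-like cells and 0.123 in NK cell-like, 0.613 in classical monocyte-like and 0.645 in nonclassical monocyte-like cells. Its classical monocyte-like value was 1.15 with a minimum of 500 UMIs.

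The 2 fibroblast-like clusters went opposite ways, with an immediate early sum in the KO library of 1.23 times the flox level in cluster 2 and 0.668 times in cluster 13. Outside the compared classes, the immediate early sum was 135 CPM in the flox library and 2724 CPM in the KO library for erythroid-like cells (10 and 2 cells). It was 14892 and 5941 CPM for mural-like cells (9 and 5 cells).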

How the results depend on the processing

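No paired analysis was possible because each genotype has 1 library and the labels give no replicate numbers. Mast cell-like cells had the highest immediate early sum in both libraries under every alternative run. The size of that lead depended on the scaling. In the flox library the highest over the median class was 3.20 with median-of-ratios size factors, 2.65 with a total without ribosomal protein, mitochondrial, hemoglobin and immunoglobulin genes, 3.12 with free RNA subtracted, 2.14 as a geometric mean over members and 2.77 without mixed barcodes. In the KO library it was 3.19 and 3.06 with minimums of 1000 and 500 UMIs per barcode, 2.997 with the reduced total, 3.63 with free RNA subtracted and 2.74 as a geometric mean. For heat shock genes the flox value was 1.18 with the reduced total, 1.59 as a geometric mean and 1.69 without Hspa8. The KO value was 1.52 and 1.60 with minimums of 1000 and 500 UMIs, 1.26 with the reduced total, 1.52 as a mean over cells, 1.80 as a geometric mean and 2.12 without Hspa8. The top heat shock class itself varied among classical and nonclassical monocyte-like, mast cell-like and fibroblast-like cells.

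The median KO over flox ratio of the immediate early sum was 1.002 with median-of-ratios factors, 1.01 both as a mean over cells and without the member with the most UMIs and 0.995, on the other side of 1, with the reduced total. The 60 pairs of a member and a class past 1.5-fold became 158 pairs with no minimum of UMIs and 25 pairs at 2-fold. Ratios that crossed 1 were those of classical monocyte-like cells at a minimum of 500 UMIs (sum 1.04, Fosb 1.06, Hspa1b 1.15, Dusp5 0.504), of the sum in mast cell-like cells with median-of-ratios factors (0.997), in T cell-like cells with the reduced total (0.995), in B cell-like cells as a geometric mean (1.001) and in fibroblast-like cluster 13 alone (0.668). The cause was not tested. Summary values that are counts have no interval, and were taken as staying when within 1.5-fold of the value under the main settings. Over all results, 75 summary values stayed within their interval or that range, 24 left it and 1 crossed 1. Among single values these numbers were 662, 53 and 8. Plasmacytoid dendritic cell-like cells were not recovered as a class at the minimums of 1000 and 500 UMIs. Alternatives without Sgk1, without the top cell and by fibroblast cluster were chosen after seeing the data. Depth limits RPE-like cells most, with 32094 UMIs in the flox library.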
